A study of Mus musculus with 2 samples.

Results

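Gata1 binding sites were examined at 9 mouse microRNA genes of blood cells, Mir144, Mir451a, Mir221, Mir222, Mir223, Mir126a, Mir210, Mir23a and Mir27a, among 1228 microRNA genes and 49599 genes in all. The 9 genes were taken by name, and a Gata1 peak was assigned to a gene when its midpoint was inside the gene or no more than 50 kb beyond one of its ends. The study mapped the zinc finger transcription factor Gata1 by chromatin immunoprecipitation and sequencing (ChIP-seq) in cells made from mouse embryonic stem cells. These were differentiated towards blood in embryoid bodies for 5 days and sorted as positive for both a Runx1-ires-GFP and a Gata1-mCherry reporter, which GEO's design text calls primitive erythroid (primitive red cells are the earliest of the embryo). There was 1 Gata1 library (rabbit antibody to Gata1) and 1 control library of the same sorted population, titled input chromatin, whose antibody field names a rabbit IgG; sorted cells from several sorts were pooled for each. Every cell carried both reporters, no other genotype or treatment was part of the series, and the stem cell line is not given in the sources used here.

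The deposited list held 4135 peaks, each 400 bp wide, with positions only. It gives no height, score, p-value or read count, so the depth is unknown, each site is reported as called or not called, and a gene without a peak is one where no peak was called. With 1 library there was no replicate and no test of differences. The microRNA levels themselves were not measured, and no expression marker of the sorted population could be checked.

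MicroRNAs are short RNAs that are cut from a hairpin in a longer primary transcript and loaded into an Argonaute protein. They lower the output of messenger RNAs that pair with their seed, bases 2 to 8 of the mature strand. Transcription of the primary transcript sets much of their level, so a lineage factor can act on a microRNA from its promoter or from distant elements. miR-144 and miR-451 are made from 1 primary transcript and are the best known red cell microRNAs. miR-221 and miR-222 restrain Kit, the stem cell factor receptor, and miR-223 is known from granulocytes and monocytes. miR-126 is known from endothelium and blood stem cells, and miR-210 from the response to low oxygen. miR-23a and miR-27a are transcribed together with miR-24.

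The mature strands of all 9 genes are shown because the seed decides which messages each one can pair with, and because shared seeds group the genes independently of their position. Sequences are from RefSeq (GRCm38.p6), which held all 9 hairpins, and capitals mark the seed.
mmu-miR-144-3p: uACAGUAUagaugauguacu
mmu-miR-451a: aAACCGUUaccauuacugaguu
mmu-miR-221-3p: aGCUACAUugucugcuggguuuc
mmu-miR-222-3p: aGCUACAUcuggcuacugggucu
mmu-miR-223-3p: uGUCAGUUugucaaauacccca
mmu-miR-126a-3p: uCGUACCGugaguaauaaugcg
mmu-miR-210-3p: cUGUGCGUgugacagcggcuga
mmu-miR-23a-3p: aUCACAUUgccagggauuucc
mmu-miR-27a-3p: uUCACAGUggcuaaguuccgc
mmu-miR-27b-3p: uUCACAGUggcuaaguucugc
miR-221-3p and miR-222-3p had the same 7 seed bases and were identical at 11 of 23 positions, counted base against base without gaps. A stretch shared with a shift of 1 base is missed by such a count. miR-27a-3p had the seed of miR-27b-3p, the product of a gene on another chromosome that is not among the 9, and matched it at 20 of 21 positions. miR-144-3p and miR-451a lie in 1 transcript but had 2 of 7 seed positions in common. The seeds of miR-23a-3p and miR-27a-3p were identical at 6 of 7 positions, counted base against base from position 2.

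The hairpins of the pair that had the most peaks are shown with their mature strands in capitals, since they differ in a known way.
Mir144: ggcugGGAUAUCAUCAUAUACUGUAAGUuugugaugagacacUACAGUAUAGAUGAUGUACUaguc
Mir451a: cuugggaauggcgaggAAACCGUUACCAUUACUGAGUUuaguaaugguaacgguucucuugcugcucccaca
The Mir144 hairpin of 66 bases carries a strand on each arm, at bases 6 to 28 and 43 to 62 from its 5′ end. The Mir451a hairpin of 72 bases carries 1 annotated strand, at bases 17 to 38, which runs past the middle of the hairpin. Mir451a is the known case of a microRNA that is matured by the slicing activity of Ago2 and not by Dicer.

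Of the 9 genes, 3 had a Gata1 peak within 50 kb: Mir144 and Mir451a with 3 each, and Mir126a with 1. Among all microRNA genes 28.6% (351 of 1228) had such a peak, so 3 of 9 (33.3%) was near the background. Within 10 kb the same 3 genes had a peak, with 2 each for Mir144 and Mir451a and 1 for Mir126a, against 8.96% of all microRNA genes (110 of 1228). Within 1 kb none of the 9 had a peak, against 1.14% (14 of 1228). Within 100 kb Mir210 was added, giving 4 of 9 against 42.3% (520 of 1228). Counted by gene, the members thus stood furthest from the background at 10 kb and near it at 50 and 100 kb. Mir144 and Mir451a share the same peaks, so the genes are not separate counts.

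The 9 genes lie at 6 separate loci, because Mir144 and Mir451a, Mir221 and Mir222, and Mir23a and Mir27a are neighbours that share their windows. Counted by locus, 2 of 6 had a peak within 50 kb, against 33.0% (311 of 943) of all microRNA loci, where genes within 10 kb of each other were joined. The 4 distinct peaks within 50 kb were 3 on chromosome 11 and 1 on chromosome 2. Within 10 kb the same 2 loci had a peak, and the share of all microRNA loci at 10 kb is not given. On the threshold, the farthest peak inside 50 kb lay 43.2 kb from Mir144 and the nearest one outside it lay 89.0 kb from Mir210.

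**Figure D1:**
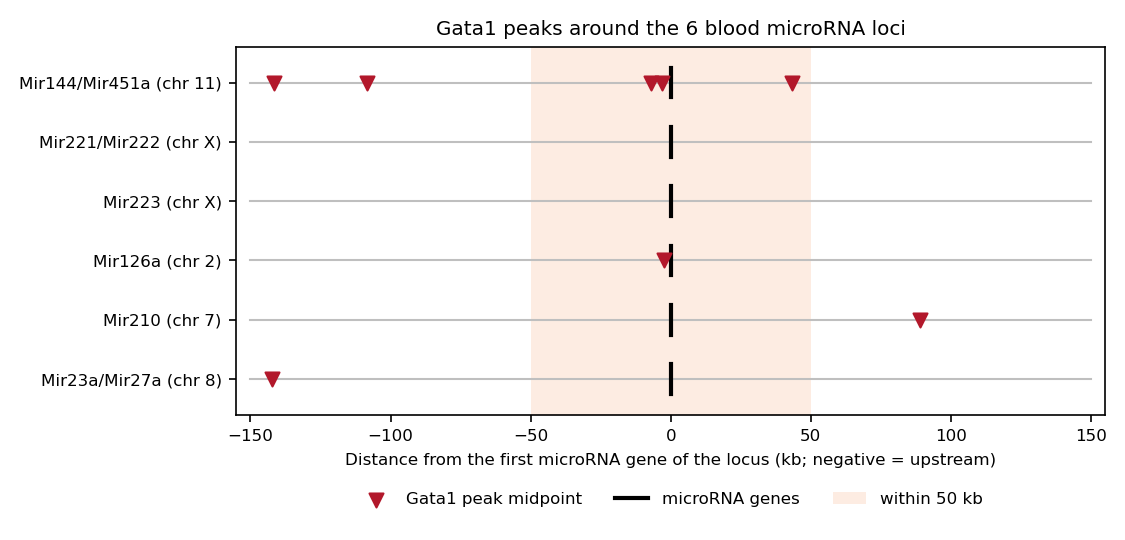
Position of every Gata1 peak midpoint (red triangles) within 150 kb of the 6 loci, as the distance in kb from the first microRNA gene (black bar), with upstream to the left; shading marks 50 kb. Peaks lie in the shaded window at Mir144/Mir451a (3 peaks) and Mir126a (1 peak), and none lies there at the other 4 loci.

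Mir144 (gene 387162) lies at chr11:78073005-78073070 (mm10, plus strand) and Mir451a (gene 723870) at chr11:78073170-78073241, 100 bp further on. The annotated Mir451b occupies the positions of Mir451a on the opposite strand and so has the same peaks. All 3 are in the gap between Flot2, encoding the membrane raft protein flotillin-2, whose higher-coordinate end is 12.6 kb below Mir144, and Eral1, encoding a mitochondrial ribosome assembly GTPase. Eral1 is on the minus strand and its lower-coordinate end is 135 bp past Mir451a. No protein-coding gene contains these hairpins.

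The nearest Gata1 peak to Mir144 was at chr11:78069639-78070038, with its midpoint 3.17 kb upstream of Mir144 and 3.33 kb upstream of Mir451a. A second peak, at chr11:78065910-78066309, lay 6.90 kb upstream of Mir144 and 7.06 kb upstream of Mir451a. The 2 midpoints were 3.73 kb apart. Both lay outside every annotated gene, in the interval between Flot2 and Mir144.

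The nearer of these peaks was 9.40 kb from the end of Flot2 and 3.54 kb from the lower-coordinate end of Eral1, against 3.17 kb from Mir144. The farther one was closer to the end of Flot2 than to Mir144 (5.67 against 6.90 kb). The nearest annotated transcription start to both was that of Eral1, at 10.5 and 14.3 kb, on the far side of the microRNA genes. Flot2 and Eral1 carried no peak inside the gene, and the same 2 peaks were within 10 kb of each.

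The third peak of this window, at chr11:78116025-78116424, was 43.2 kb downstream of Mir144 and lay inside Fam222b. Its midpoint was 0.598 kb after the later of 2 annotated start sites of Fam222b and 21.5 kb after the first. It is counted here because of the 50 kb rule, and its distance to a Fam222b start was far smaller than its distance to the microRNAs. Phf12, Dhrs13 and the antisense transcript Dhrs13os, the other annotated genes within 50 kb, had no peak in the gene or within 10 kb. Beyond 50 kb, 2 peaks inside Sez6 lay 108 and 142 kb upstream of Mir144.

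Against all microRNA genes, 39 of 1228 had a nearer peak than Mir144 and 43 a nearer one than Mir451a. At least 2 peaks within 10 kb were found for 15 of 1228 (1.22%), at 11 loci, and Mir144, Mir451a and Mir451b were 3 of these genes. At least 3 peaks within 50 kb were found for 40 of 1228 (3.26%). These last 2 cut-offs were chosen after the values of the locus were seen and describe it only. Among 92 microRNA genes of known strand with a peak within 10 kb and outside the hairpin, the nearest peak was upstream for 50 (54.3%), so an upstream position alone did not set Mir144, Mir451a and Mir126a apart.

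**Figure D2:**
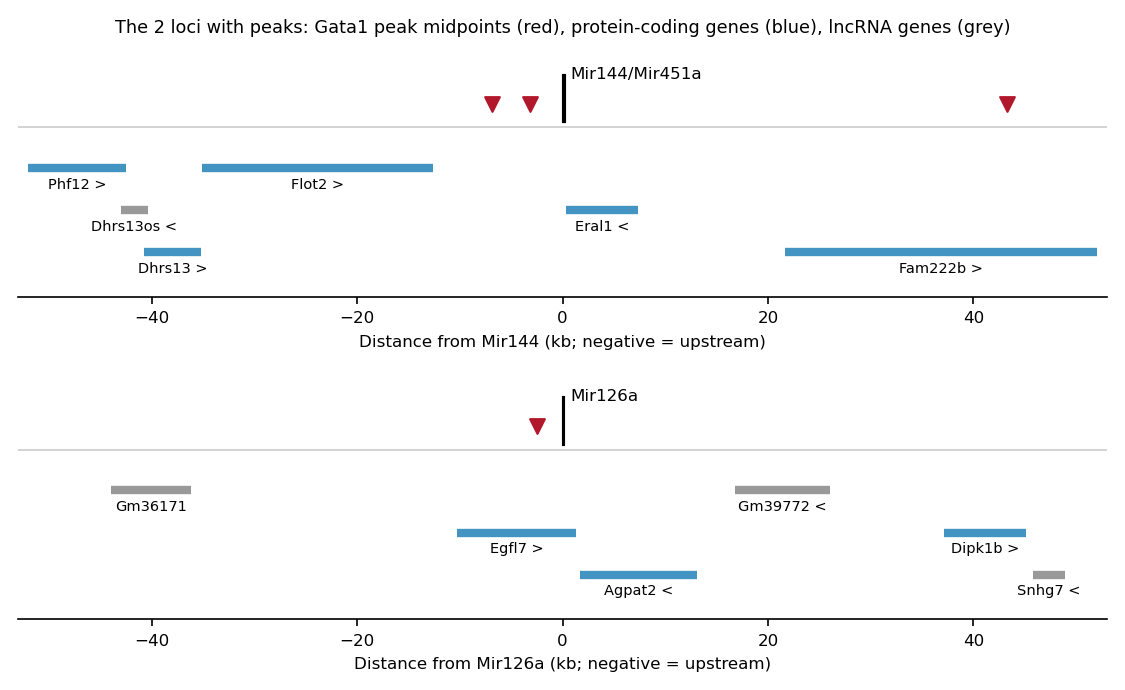
Maps of the 2 loci with peaks, to scale in kb from Mir144 (top) and Mir126a (bottom), with Gata1 peak midpoints in red, protein-coding genes in blue and lncRNA genes in grey; > and < give the gene's strand, and genes that run past 52 kb are drawn to there. Peaks at 3.17 and 6.90 kb upstream of Mir144 fall between Flot2 and the hairpin, and the peak 2.52 kb upstream of Mir126a falls inside Egfl7.

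Mir126a (gene 387145) lies at chr2:26591357-26591429 (mm10, plus strand), inside the 11.6 kb gene Egfl7, which encodes a secreted protein of blood vessels and is transcribed in the same direction. Mir126b is annotated on the opposite strand of the same stretch. Its 1 peak, at chr2:26588641-26589040, was 2.52 kb upstream of the hairpin, and 31 of 1228 microRNA genes had a nearer one. Of the 9 genes Mir126a had the nearest peak, and it was the only one of the 9 within a protein-coding gene.

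This peak was also inside Egfl7, 7.76 kb from the gene's first annotated start and 2.20 kb after the last of its 3 annotated starts. The position alone cannot assign it to the host gene or to the microRNA. Exon and intron boundaries were not used here. Agpat2, an enzyme gene of phospholipid synthesis that ends 1.63 kb past Mir126a on the opposite strand, had the same peak within 10 kb and none inside. Dipk1b and the noncoding Gm36171, Gm39772, Snhg7, Snora43 and Snora17 had none in the gene or within 10 kb. Of microRNA genes inside a protein-coding gene, 33.1% (273 of 824) had a peak within 50 kb and 10.2% (84 of 824) within 10 kb. Of those outside, 19.3% (78 of 404) had one within 50 kb.

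Mir221 (gene 723827, chrX:19146294-19146388) and Mir222 (gene 723828, chrX:19146893-19146971) are both on the minus strand, 505 bp apart. They had no peak within 100 kb, and the nearest one was at chrX:13461452-13461851, 5685 kb away. Within 50 kb there is 1 other annotated gene, the noncoding Gm14636, a minus-strand gene whose near end is 9.50 kb and whose annotated start is 90.9 kb beyond Mir222, and which had no peak. Kit, a known target of this pair, carried 1 peak in the gene. Cdkn1b and Cdkn1c, also on the list of reported targets counted below, had none within 50 kb (nearest at 59.4 and 72.4 kb).

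Mir223 (gene 723814) lies at chrX:96242817-96242926 on the plus strand, inside the noncoding gene F630028O10Rik, whose annotated lower-coordinate end is 2.89 kb below it. It had no peak within 100 kb. The nearest was at chrX:95711830-95712229, 531 kb upstream, and 866 of 1228 microRNA genes had a nearer one. Vsig4, a macrophage complement receptor gene 4.28 kb past Mir223, had no peak in the gene or within 10 kb.

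These 3 genes are on the X, which held 42 of the 4135 peaks. On the X, 4.35% of microRNA genes (4 of 92) had a peak within 50 kb, against 30.5% (347 of 1136) on the autosomes. The median distance to the nearest peak was 1478 kb for microRNA genes on the X and 134 kb on the autosomes. The absence of peaks at Mir221, Mir222 and Mir223 therefore cannot be told apart from the low number of peaks on their chromosome. Of the 6 autosomal members, 3 had a peak within 50 kb.

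**Figure D3:**
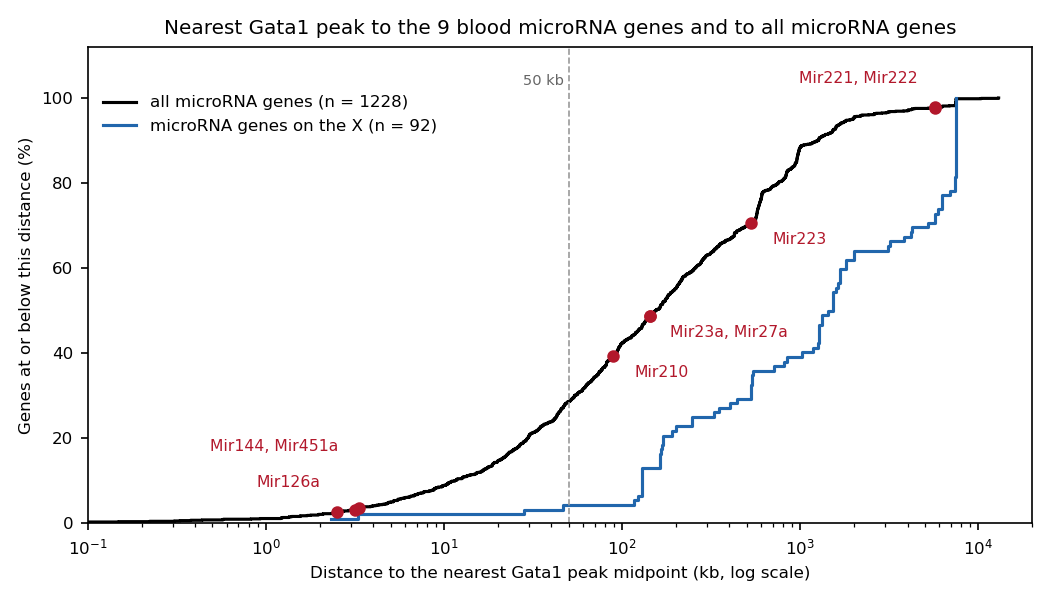
Cumulative share (%) of all 1228 microRNA genes (black) and of the 92 on the X (blue) by distance in kb to the nearest Gata1 peak midpoint, on a log axis that starts at 0.1 kb and takes in closer genes there; red points place the 9 genes on the black curve. Mir126a, Mir144 and Mir451a lie at the lower left, and Mir221 and Mir222 near the upper end at 5685 kb.

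Mir210 (gene 387206) lies at chr7:141221384-141221493 on the minus strand, between Rassf7, which ends 2.73 kb below it, and the overlapping genes Gm51460 and Phrf1, whose lower-coordinate ends are 6.71 and 6.98 kb above it. It had no peak within 50 kb although 9 protein-coding genes, among them Hras and the interferon regulatory factor gene Irf7, lie at least partly in that window. None of those genes had a peak inside or within 10 kb. The nearest peak, at chr7:141132159-141132558, was 89.0 kb downstream, inside Ptdss2 and 1.07 kb after a start of that gene. Of all microRNA genes, 482 had a nearer peak.

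Mir23a (gene 387216, chr8:84208518-84208592) and Mir27a (gene 387220, chr8:84208672-84208758) are on the plus strand, 80 bp apart, with Mir24-2 57 bp further on and the opposite-strand Mir3074-2 overlapping it. None of these 4 had a peak within 100 kb. The nearest, at chr8:84066018-84066417, was 142 kb upstream of both members, inside the gene Rfx1 and 0.619 kb before an annotated Rfx1 start. Zswim4, which ends 2.02 kb past Mir24-2, had no peak in the gene or within 10 kb. The distances of Mir23a and Mir27a were close to the median of 153.5 kb over all microRNA genes.

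The second mouse copy of this cluster had peaks at a moderate distance. Mir27b, whose product has the same seed as miR-27a-3p, lies at chr13:63300712-63300784 inside Aopep. It had 2 peaks within 50 kb, the nearer at 17.1 kb, and none within 10 kb. Its neighbours Mir23b and Mir24-1 had the same 2 peaks. Mir1928, a gene on chromosome 1 that has the seed of miR-221-3p and miR-222-3p, had no peak in the 50 kb window, the nearest being 89.0 kb away.

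Over the 6 loci, 43 other annotated genes overlapped the 50 kb windows, 24 of them protein-coding. A peak lay inside 2 of them, Fam222b and Egfl7. RefSeq gives promoter windows of 300 bases (250 before to 50 after a start) for 29 of the 43, among them all 24 protein-coding genes, 36 windows in all, and no Gata1 peak overlapped any of these windows. The letters AGATAA or TGATAA, on either strand, are forms of the sequence that Gata1 binds, and only these forms were searched. They were found in 7 of these 36 windows (19.4%), against 18.6% of all 32851 promoter windows and 33.1% of the 541 windows that a Gata1 peak overlapped. Windows of alternative starts of a gene can overlap. Matches before an annotated start are shown for the 2 host genes, Egfl7 and F630028O10Rik, and for Fam222b, which held a peak. They lay outside the called peaks, and the matches of the other windows are not shown. The Egfl7 match lies inside that gene, before its second start. Capitals mark the 6 letters, read on the gene's own strand, where TTATCA and TTATCT are the same motif on the other strand.
Egfl7, second start: gacggatccccgTTATCAgcagagaacaca
F630028O10Rik: ttagcctcaactTTATCTtcctcatttctg
Fam222b, first start: gacatcaggcaaTGATAAagacgtccccgg
A match in these letters is a description of the sequence and not a binding site. The genome sequence under the peaks themselves was not used here, so the letters at the 2 peaks upstream of Mir144 and the peak in Egfl7 are not given.

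Other microRNA genes of blood cells were taken as a wider list. It and the lists that follow were chosen with earlier results of these data known. Of 51, 21 (41.2%) had a peak within 50 kb and 7 (13.7%) within 10 kb, against the 28.6% and 8.96% of all microRNA genes. The 21 genes lay at 14 loci, and no share by locus is given for this list. The list includes Mir24-2 and Mir3074-2, which lie at the locus of Mir23a and Mir27a. The 7 were Mir106b, Mir25 and Mir93, which share 1 peak at 6.09 to 6.50 kb, Mir10a at 1.34 kb, Mir130a at 5.51 kb, Mir425 at 9.79 kb and Mir142, a gene of most blood cells, with 2 peaks and the nearer at 2.93 kb. Mir142 was the 1 gene of this list with 2 peaks within 10 kb, the number also found at Mir144 and Mir451a.

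Of 41 microRNA genes known from other tissues, 10 (24.4%) had a peak within 50 kb and 5 (12.2%) within 10 kb. The 5 were Mir132, Mir212, Mir194-1, Mir203 and Mir7-1. Mir132, known from neurons, held a peak midpoint in the hairpin itself, and its neighbour Mir212 was 0.222 kb from the same peak. Within 10 kb the 2 lists had similar shares (13.7 and 12.2%), and both were below the 3 of 9 of the genes named above, which form only 6 loci.

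**Figure D4:**
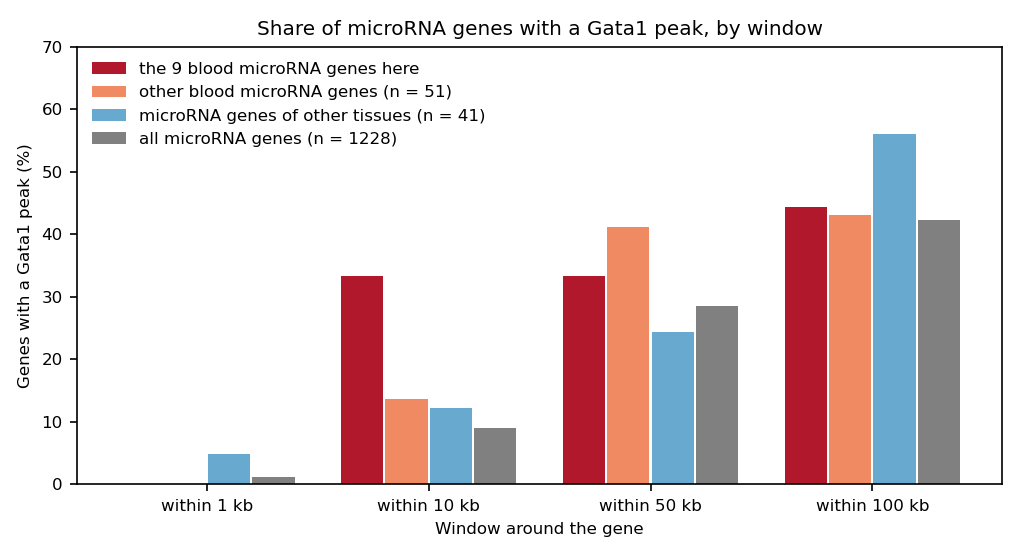
Share (%) of microRNA genes with at least 1 Gata1 peak in the gene or within 1, 10, 50 or 100 kb of it, for the 9 genes, the 51 other blood microRNA genes, the 41 genes of other tissues and all 1228. The red bar is well above the grey one at 10 kb (33.3 against 8.96%) and close to it at 50 and 100 kb. At 10 kb it stands for genes at only 2 loci. The bars are counts from 1 library and carry no error.

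Genes that make, use or regulate microRNAs were examined next, with Lin28a and Lin28b counted as regulators. Of 18, 8 (44.4%) had a peak within 50 kb and 7 (38.9%) within 10 kb, against 32.0% (6959 of 21775) and 16.5% (3597 of 21775) of all protein-coding genes. These genes differ in length from the average gene and longer genes have wider windows, which was not matched here. Drosha, the nuclease that cuts hairpins from primary transcripts, had 2 peaks in the gene or within 1 kb. Xpo5, the exporter of hairpins from the nucleus, had 1 at 0.320 kb outside the gene. Ago2, which slices the miR-451 hairpin, had 1 within 10 kb, at 6.35 kb, and 2 within 50 kb. Tnrc6a, Tnrc6c, Lin28a and Lin28b each had 1 within 10 kb, inside the gene. Dicer1, Dgcr8, Ago1, Ago3 and Ago4 had none within 50 kb.

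Genes reported elsewhere as targets of these microRNAs were counted the same way. Of 26, 10 (38.5%) had a peak within 50 kb, against 32.0% of protein-coding genes. The same 10 had one within 10 kb and within 1 kb, against 16.5% and 11.3% (2452 of 21775) of protein-coding genes, again without matching on gene length. This list was chosen with earlier results of these data known, so the contrast is a description only. They were Cab39, Crk, Ets1, Foxo3, Igf1r, Kit, Nfe2l2, Nfia, Pik3r2 and Runx1. For miR-451 targets, Cab39, a scaffold protein of the LKB1 kinase, had 1 peak in the gene, and Ywhaz, an adaptor protein, had its nearest at 122 kb. Nfe2l2, encoding the oxidative stress factor Nrf2 and a target of miR-144, had 1 peak 0.433 kb outside the gene. For miR-223 targets, Igf1r had 2 peaks and Nfia had 1, while Lmo2, Mef2c and E2f1 had none within 50 kb. For miR-126 targets, Crk had 2 and Pik3r2 had 1 within 50 kb, while Spred1 and Vcam1 had none. Iscu and Efna3, targets of miR-210, had none within 50 kb. Runx1, a reported target of miR-27a, had 3 peaks in the gene or within 1 kb.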

How the data were processed

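Per the labels' protocols, pooled sorted cells were fixed with 1% formaldehyde, 7 µg of antibody was used, and libraries were size-selected for 150 to 400 bp. Bowtie2 2.0.6, MACS2 2.0.10 and build mm10 are named, per the submitters' processing notes. How they were set, the peak threshold and any use of the control: not given in the sources used here. The values the authors deposited are peak start and end positions in base pairs, and every interval is 400 bp wide. The control library was not analysed here.

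Gene positions, strands and sequences came from RefSeq tables of GRCm38.p6, the assembly that mm10 names. Genes on chromosomes 1 to 19, X and Y were kept, less 340 autosomal or X entries placed below 3 Mb, taken as scaffold coordinates. Positions are 1-based, and distances run from the peak midpoint to the nearest gene end. Windows of 1, 10 and 100 kb, overlap by any base, runs of peaks within 1 kb counted once, joined loci and autosomes only were alternatives. Window counting was tested on simulated data. Python 3.11.15, numpy 2.4.6, pandas 2.3.3 and matplotlib 3.10.9 were used.

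The 9 genes and the lists were chosen with earlier results of these data known. Of 55 other blood microRNA entries 51 matched; the 41, 18 and 26 entries of the other lists all did. Named genes were the 9, genes containing a member or one of its peaks, the nearest protein-coding genes, microRNA genes within 10 kb, and up to 10 listed genes per list with a peak within 10 kb. Other genes were named after their values were seen.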

Additional observations from a re-analysis of the deposited data

How the results depend on the processing

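No paired analysis was possible because there was 1 Gata1 library. The 3 of 9 genes with a peak within 50 kb became 0 within 1 kb and 4 within 100 kb. They stayed 3 within 10 kb and with any overlapping base. Counting runs of peaks once cannot change this count. Keeping autosomes only removes members without a peak, so the 3 could not change there either. By locus the count was 2. The 4 distinct peaks became 0 within 1 kb, 3 within 10 kb and 5 within 100 kb. The 21 other blood microRNA genes became 0 within 1 kb, 7 within 10 kb and 22 within 100 kb. The 10 microRNA genes of other tissues became 2, 5 and 23, and the 10 target genes became 17 within 100 kb. Wider windows can only add peaks. Of 54 alternatives for single genes, 50 kept the value within 1.5 times. Many could hardly move: a gene without a peak stays at 0 in a narrower window, and nearest-base distances differ by a fixed amount. The fall from 3 to 2 peaks within 10 kb at Mir144 and Mir451a counted as kept. The count of 50 is therefore no measure of stability. The alternatives that moved were the 1 kb window for Mir144, Mir451a and Mir126a (0 each) and the 100 kb window for Mir210 (1). The joined loci and the autosomes only were chosen after seeing the data. A stricter peak threshold and the motif searches in peaks were not run, since the list has no score and no genome sequence was used. The unknown depth limits every absence to a peak not called.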

Other observations

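Few microRNA genes had a Gata1 peak at the hairpin itself. Of the 14 with a peak within 1 kb, 3 held its midpoint: Mir132, at chr11:75173501-75173900, Mir3473c inside Traf5 and Mir1955 inside Phf21a. Mir101b, inside Rcl1, overlapped the peak at chr19:29135325-29135724, whose midpoint was 0.149 kb from the hairpin. The Mir1931 hairpin, inside Cdk17, lay within the peak at chr10:93162585-93162984, whose midpoint was 0.001 kb from it. The largest number within 10 kb was 4, at Mir3069, followed by 3 at Mir681 inside Cdkl1. Mir5134, inside the cyclin gene Ccnf, had 2 within 10 kb and 6 within 50 kb. All genes in this paragraph were picked with their values in view, and nothing was tested.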
